A study of Homo sapiens with 6 samples.

Results

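The zinc finger (ZNF) genes of human chromosome 19 were taken as the protein-coding genes of GENCODE release 44 on that chromosome whose name is ZNF followed by digits. They were 249 of the 1476 protein-coding genes of chromosome 19 and of the 20033 protein-coding genes of the annotation, and the rule uses no measured value. The comparison groups were the other 1227 protein-coding genes of chromosome 19 and the 266 ZNF genes of the other chromosomes. Chromatin was native mononucleosomes released with micrococcal nuclease from HepG2 cells, a human cell line grown from a liver tumour, with no treatment or genetic change given for any sample. In CIDOP, a pull-down like ChIP, the GST-tagged tandem Tudor domain (TTD) of human UHRF1 took the place of the antibody, so the assay reports the isolated domain and not full-length UHRF1. The series holds 2 replicates each of the TTD CIDOP, an H3K9me2 ChIP and the input, 6 libraries in all. The values come from 1 list of 31569 broad TTD peaks on hg38 that pooled both CIDOP replicates, so no value has an error between replicates. How deeply a library was sequenced is unknown here, because the list holds positions and widths only and the methods state no more than a minimum, and the signals of the H3K9me2 ChIP and of the input were not used here.

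UHRF1 is a chromatin protein that keeps DNA methylation in place after replication, and its TTD reads di- and trimethylated lysine 9 of histone H3, with a preference for tails that also carry monomethylated lysine 4. Most ZNF genes of chromosome 19 encode transcription factors with a long array of C2H2 zinc fingers, each of which helps to read a few bases of DNA, and many carry a KRAB domain, which recruits the corepressor TRIM28 and the H3K9 methyltransferase SETDB1. The genes arose by tandem duplication and stand in clusters. The finger array of such a gene usually lies in the last exon, and ZNF genes are known in many cell types for H3K9me3 over their bodies and 3′ ends. Cover is used here for the percent of the bases of a window that lie in TTD peaks, and the windows are the gene body, the TSS window (2.5 kb on each side of the transcription start site of the canonical transcript) and the last exon of that transcript.

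The names were first checked against the sequence. The translated canonical coding sequences held a median of 12 C2H2 fingers, and 246 of the 249 genes (98.8%) had 2 or more. ZNF208 had the most, with 36. The pattern was absent from ZNF625-ZNF20 and ZNF816-ZNF321P, which are read-through genes that join neighbours. A short pattern of the KRAB domain was found in 205 genes (82.3%), and a gene without this pattern may still carry the domain. The genes had a median length of 26.1 kb against 13.8 kb for the other genes of the chromosome, and their last exon a median of 3338 bp against 732 bp.

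TTD peaks met the ZNF genes more often around the TSS than over the last exon. A peak lay in the TSS window of 64 of the 249 genes (25.7%, 95% Wilson interval 20.7 to 31.5) and in that of 57 of the 1227 other genes of chromosome 19 (4.65%, 3.60 to 5.97), where the share over all genes of the chromosome was 8.2%. Over the gene body, 65 ZNF genes (26.1%, 21 to 31.9) and 120 other genes (9.78%, 8.24 to 11.6) held a peak, with 12.5% over all genes of the chromosome. Over the last exon it was 6 ZNF genes (2.41%, 1.11 to 5.16) and 10 other genes (0.815%, 0.443 to 1.49), with 1.08% over all. With only the peaks of the median width (2250 bp) or more, the shares of ZNF genes were 9.64% for the TSS window and 13.7% for the body, against 1.39% and 3.02% of the other genes, and with at least 10% of the body in peaks 12% of ZNF genes counted, against 2.2%. For the shares as first given, the intervals of ZNF and other genes did not overlap for the TSS window and the gene body and overlapped for the last exon. They cover counting error only, and because neighbouring genes can share a peak, the genes are no independent replicates and no test was made over them.

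**Figure D1:**
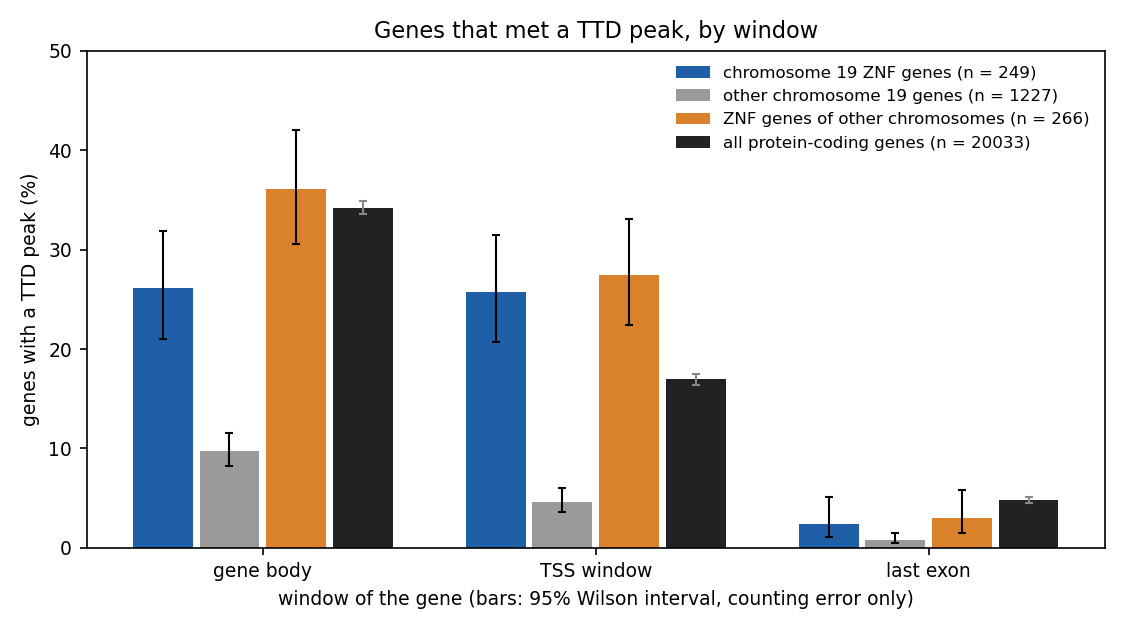
Share of genes with a TTD peak (y axis, percent) in the gene body, TSS window and last exon, for the 4 gene groups (bars) with 95% Wilson intervals (lines, counting error only). Chromosome 19 ZNF genes reached 25.7% in the TSS window, above the other chromosome 19 genes at 4.65% and near the ZNF genes elsewhere at 27.4%.

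At the TSS, the share of ZNF genes with a peak was close to that of the ZNF genes of the other chromosomes, and their intervals overlapped. Of the 266 ZNF genes elsewhere, 73 (27.4%, 22.4 to 33.1) held a peak in the TSS window, against 16.9% of all protein-coding genes. The gene body gave 96 genes (36.1%, 30.6 to 42.0) against 34.2% of all genes, so the chromosome 19 ZNF genes, at 26.1%, stood below the genome in this window and above it in the TSS window. In the last exon, 8 ZNF genes elsewhere (3.01%, 1.53 to 5.82) were met by a peak, against 4.82% of all genes. Over all genes, the share on chromosome 19 was below that of the genome in each window, so a comparison with the rest of the genome also carries this difference between chromosomes.

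The same genes were not always met in both windows. A peak lay over both the body and the TSS window of 45 ZNF genes, over the body alone of 20 and in the TSS window alone of 19, and 165 genes met none in any of the 3 windows. In all, 84 genes (33.7%) met a peak, beside 15.3% of all genes of the chromosome and 38.8% of all protein-coding genes. Of the 65 genes with a peak in the body, 56 held exactly 1, 6 held 2 and 3 held 3. The median cover was 0 in each window, and mean cover therefore rested on a minority of genes. In the TSS window it was 8.46% (SD over genes 17.1) against 1.11% (SD 6.23) in the other genes of the chromosome, in the body 2.73% (SD 6.23) against 0.729% (SD 3.71), and in the last exon 0.749% (SD 5.60) against 0.644% (SD 7.35). With bases pooled over genes, so that long genes weigh more, it was 1.87% against 0.902% in the body and 0.621% against 0.405% in the last exon. The TSS window gave 3.52% against 0.490% with only the peaks of the median width or more. The body without the bases of the TSS window gave 1.68% against 0.642% in the 1137 other genes with bases left. The last 3 kb of the gene, in place of the last exon, gave 1.23% against 0.534%. Among the genes with a peak, the median cover was 29.6% of the TSS window and 8.67% of the body.

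Around the start of the genes, mean cover by TTD peaks was high on both flanks and low at the TSS itself, although single genes mostly had a peak on one flank. Mean cover over the 249 ZNF genes was 13.7% at 750 to 1000 bp upstream of the TSS, 1.70% in the first 250 bp downstream, and 13% at 1250 to 1500 bp downstream. In the other genes of the chromosome it did not exceed 1.99% in any bin within 5 kb. The ZNF genes elsewhere had 14.2% at 750 to 1000 bp upstream and 11% at 1500 to 1750 bp upstream, where those of chromosome 19 had 6.67%, and their highest downstream bin was 7.97%. In the 64 covered ZNF genes of chromosome 19, cover was 32.4% (SD over genes 27.8) upstream and 33.5% (SD 31.8) downstream, whereas the 73 covered ZNF genes elsewhere had 37.4% (SD 28.2) and 22.1% (SD 28.2).

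**Figure D2:**
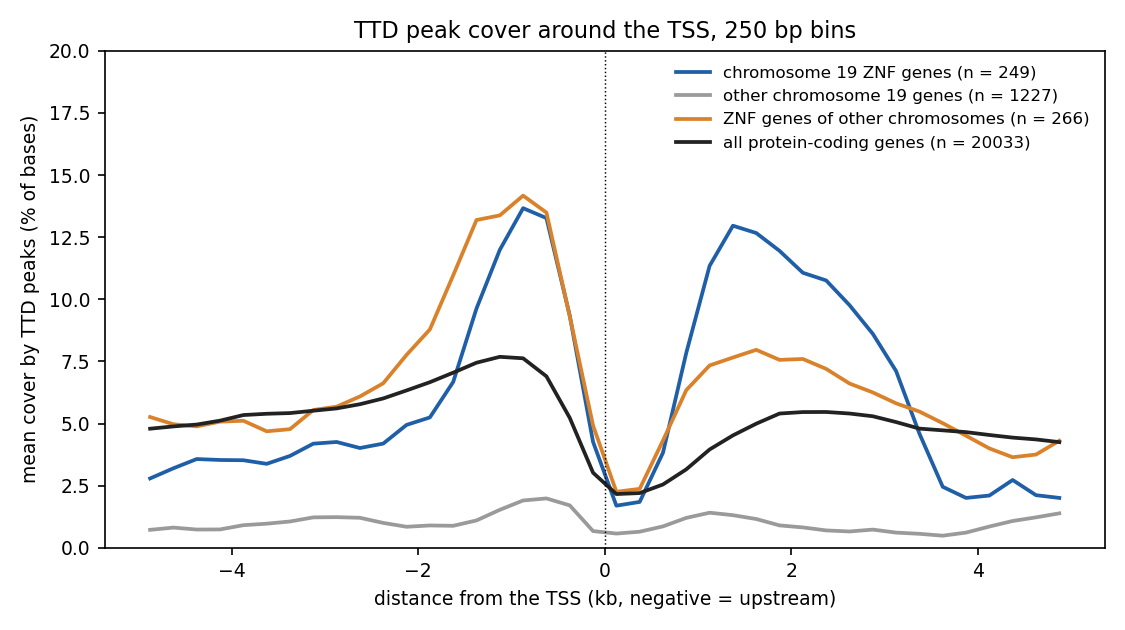
Mean cover by TTD peaks (y axis, percent of bases) in 250 bp bins within 5 kb of the TSS (x axis, kb, negative upstream) for the 4 gene groups (lines). The chromosome 19 ZNF genes rise to 13.7% upstream and 13% downstream and fall to 1.70% just after the TSS.

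Of the 64, 26 had peak bases only upstream of the TSS, 20 only downstream and 18 on both sides, and in 13 of the 18 the TSS itself was free between the flanks. The central 500 bp had no peak base in 46 of the 64, and their mean cover there was 11.6% (SD 26.1), against 36.8% (SD 24.3) at 1 to 2.5 kb on either side. The TSS lay inside a peak in 5 genes (7.81%, 3.38 to 17), which were ZNF175, ZNF235, ZNF528, ZNF530 and ZNF793. Where it did not, the nearest peak was a median of 585 bp away. A TSS free of peaks was general in the list. Among all protein-coding genes with a peak in the TSS window, the TSS lay in a peak in 438 of 3394 (12.9%), and the share was 10.5% in the other genes of chromosome 19 and 8.22% in the ZNF genes elsewhere. Over the same 3394 genes, cover was 15.3% in the central 500 bp and 34.9% at the flanks.

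**Figure D3:**
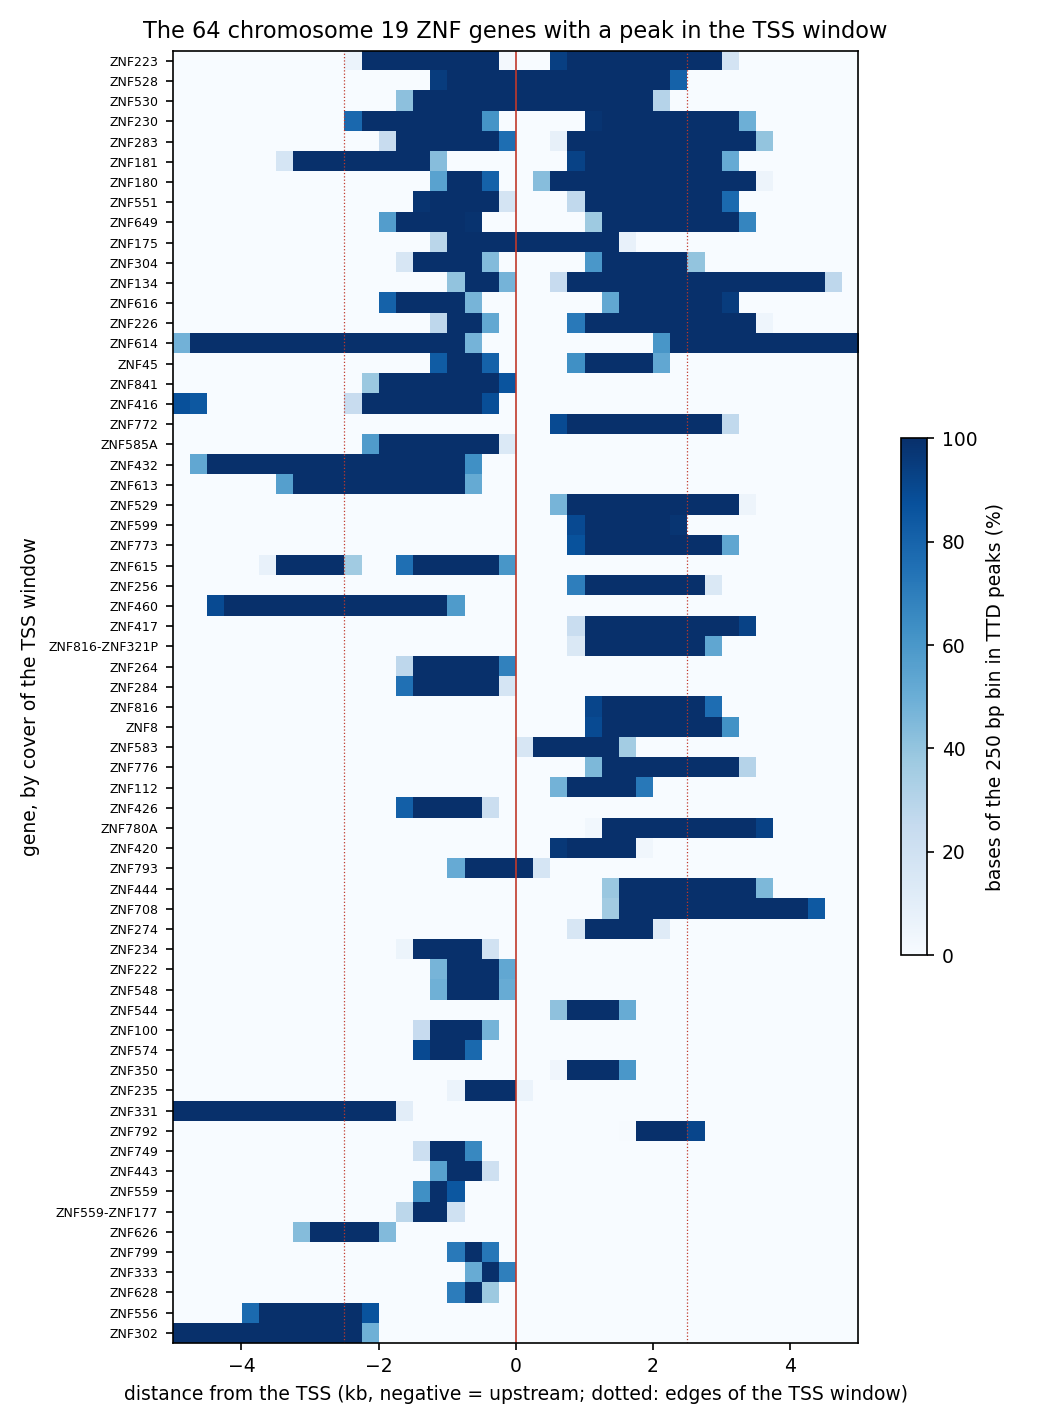
Each row is 1 of the 64 ZNF genes with a peak in the TSS window, ordered by the cover of that window, and colour gives the percent of each 250 bp bin in TTD peaks against the distance from the TSS (x axis, kb). Peaks stop short of the TSS (solid line) on either side in all but 5 rows.

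ZNF223 (chr19:44051367-44067999, plus strand) had the largest cover of the TSS window, 80.1%, with 80.8% upstream and 79.4% downstream, while its nearest peak edge was 246 bp from the TSS. ZNF230, which stands 1 gene away with ZNF222 between them, followed the same form, with 84.0% upstream, 59.9% downstream and 71.9% in all. ZNF283 reached 70.4%, with peaks of 1750 bp before and 2870 bp after a TSS that lay 61 bp from the nearest of them. These 3 genes carry the KRAB pattern and belong to 1 cluster. ZNF528 and ZNF530, with 73.8% and 73.6%, differed in form, since a single peak of 3690 bp and 3680 bp, respectively, ran across the TSS.

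The promoter sequences show these forms. They are given 5′ to 3′ in the direction of the gene as the 250 bases before the RefSeq start on GRCh38.p14, with each CG dinucleotide, the site of DNA methylation, in capitals. That of ZNF230 (chr19:44002707-44002956, plus strand) lies in the gap between the peaks and holds 0 peak bases. That of ZNF528 (chr19:52397599-52397848, plus strand) lies wholly inside a peak. That of ZNF91 (chr19:23395472-23395721, minus strand), a gene known to repress SVA retrotransposons, is an example of a window without a peak, with fewer CG than the median of such promoters.
ZNF230 promoter: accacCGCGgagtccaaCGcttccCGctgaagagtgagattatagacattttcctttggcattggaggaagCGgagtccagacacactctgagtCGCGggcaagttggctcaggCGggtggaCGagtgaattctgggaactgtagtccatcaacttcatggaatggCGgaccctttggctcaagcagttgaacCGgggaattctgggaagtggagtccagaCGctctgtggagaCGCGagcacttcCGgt
ZNF528 promoter: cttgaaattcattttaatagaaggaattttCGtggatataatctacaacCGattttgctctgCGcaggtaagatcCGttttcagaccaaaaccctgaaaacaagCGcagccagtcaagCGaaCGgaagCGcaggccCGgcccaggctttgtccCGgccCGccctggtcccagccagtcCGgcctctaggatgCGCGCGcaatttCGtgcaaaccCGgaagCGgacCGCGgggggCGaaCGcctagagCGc
ZNF91 promoter: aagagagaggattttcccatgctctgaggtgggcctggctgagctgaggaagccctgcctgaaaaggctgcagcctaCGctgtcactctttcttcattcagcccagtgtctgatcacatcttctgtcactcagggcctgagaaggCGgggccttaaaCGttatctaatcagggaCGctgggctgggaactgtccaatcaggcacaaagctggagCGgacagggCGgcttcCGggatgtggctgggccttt

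The ZNF230 promoter held 15 CG dinucleotides in its 250 bases. The ZNF528 promoter held 23, inside its peak, and the ZNF91 promoter held 7. Of the 249 genes, 218 had a promoter in the RefSeq table, and these held a median of 16 CG (range 1 to 39), against 11 over all 35116 promoters of the table, of which 93.9% held at least 1. The median was 17 in the 59 such genes with a peak in the TSS window and 15 in the 159 without. Over all 64 covered TSS windows, bases in peaks held 1.52 CG per 100 bases, while the central 500 bp held 7.20. Outside the peaks and the centre it was 2.06.

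The median CpG content around the TSS differed little between ZNF genes with and without a peak. The observed/expected CpG ratio of the 1 kb around the TSS had a median of 0.709 in the 64 with a peak in the TSS window and 0.707 in the 185 without, and 0.654 in the other genes of the chromosome. Its lower and upper quartiles were 0.657 and 0.766 in the 64, and 0.612 and 0.765 in the 185. Within quartiles of this ratio over all genes of the chromosome, the share of ZNF genes with a peak was 14.3%, 18%, 33.7% and 24.5% from the lowest to the highest quartile, with 7, 89, 104 and 49 genes, and that of the other genes was 4.14%, 3.57%, 7.92% and 3.44%. The share in ZNF genes was the higher in each quartile, but in the lowest quartile it rested on 1 of 7 genes and its interval (2.57 to 51.3) overlapped that of the other genes (2.53 to 6.72). Because the genes are copies of each other, the percent of 31-base words that occur once on chromosome 19 was counted as a measure of how alike the copies are. The study's paired reads were longer than these words, so the measure does not give how well the reads were placed. Its median in the TSS window was 91.7% in the 64 genes with a peak and 87.0% in the 185 without, and its part in the result was not tested.

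Over the gene body, the largest cover was that of ZNF134, a gene of 10492 bp with 1 peak of 3880 bp (chr19:57614931-57618810) and 37.0% of its bases covered. ZNF614 followed with 34.6%, or 6040 bp. These came from a peak of 4810 bp and part of a peak of 4240 bp that also met ZNF432. ZNF256 had 28.5% and ZNF302 24.5%. ZNF772 (23.3%), ZNF181 (22.7%), ZNF230 (21.6%), ZNF350 (20.8%), ZNF226 (20.2%) and ZNF776 (19.3%) completed the highest 10. These genes were mostly short, and in all of them except ZNF350 and ZNF614 the body was under 14 kb, so that 1 or 2 peaks took a large share. ZNF350, which encodes a repressor that binds BRCA1, held 3 peaks in 22517 bp.

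Mean cover of the body was higher toward the start of the genes than toward their end, and higher outside the exons of the canonical transcripts than in them. Along 20 equal parts of the gene, mean cover was 4.25% in the first, 7.76% in both the second and the third, 5.24% in the sixth and 1.12% in the last, and it did not exceed 1.23% from the eleventh on. In the other genes of the chromosome the highest of the 20 parts had 1.19%. Of the peak bases in ZNF gene bodies, 40.8% lay inside a TSS window, and 5.37% in exons of the canonical transcripts, which make up 13.9% of the body bases. Cover was 0.720% of the bases of these exons and 2.05% of the other body bases. The latter are introns and bases of the gene outside its canonical transcript.

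A longer gene meets a peak more easily, so the shares were also taken within classes of length. In genes under 10 kb, 7 of 25 ZNF genes (28%) and 17 of 444 other genes (3.83%) held a peak in the TSS window. At 10 to 30 kb it was 37 of 129 (28.7%) and 21 of 491 (4.28%), and over 30 kb 20 of 95 (21.1%) and 19 of 292 (6.51%). For the body the shares were 20% and 2.70% under 10 kb, 25.6% and 6.52% at 10 to 30 kb, and 28.4% (20.3 to 38.2) and 26% (21.3 to 31.3) over 30 kb, where the intervals overlapped. The share of ZNF genes was thus the higher in each class for the TSS window, and for the body clearly so only in the classes up to 30 kb.

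The last exon, which usually carries the finger array, was met by a peak in only 6 ZNF genes, ZNF302, ZNF181, ZNF350, ZNF432, ZNF331 and ZNF548. ZNF331, an imprinted gene, had the largest cover, 50.1% of 3573 bp, from a peak 40336 bp from its TSS that ran past the end of the gene (chr19:53578481-53582420). ZNF432 had 46.1% of 4063 bp, and its peak lay 632 bp from the TSS of the next gene, ZNF614, and in that TSS window. In both, as in ZNF181 (3.94%) and ZNF548 (6.18%), no covered base of the last exon was coding. ZNF350 had 36.9% of its last exon in a peak of 9680 bp, with 174 coding bases.

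ZNF302 was the one ZNF gene in which peak bases lay over a sequence that encodes a finger. The coding bases of ZNF350 in its peak held no part of a finger. The peak of ZNF302 (chr19:34683031-34685180, 2150 bp) covered 929 bases of the last exon of 2145 bp (43.3%), all of them coding, and 6 of the 7 fingers lay wholly inside it. The stretch shown, hg38 chr19:34684707-34684958 on the plus strand, is 252 bases of that exon inside the peak that encode 3 fingers, and the capitals mark the codons of the conserved linker between fingers at the 2 places where its pattern was found.
ZNF302 last exon: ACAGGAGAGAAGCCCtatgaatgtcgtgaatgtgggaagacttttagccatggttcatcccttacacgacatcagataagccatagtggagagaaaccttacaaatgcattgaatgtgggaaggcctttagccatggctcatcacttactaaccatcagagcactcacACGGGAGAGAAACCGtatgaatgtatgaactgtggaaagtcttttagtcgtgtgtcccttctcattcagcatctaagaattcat

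The 31-base words of the last exon of ZNF302 occurred once on the chromosome in 69.8% of cases, against a median of 91.0% over all ZNF genes and of 100% in the other genes of chromosome 19. Over the 64 genes with a peak in the TSS window the median for the last exon was 94.3%, and over the 185 without 89.6%. The median for the last exons of the ZNF genes was thus below that for the last exons of the other genes, and above those of their own TSS windows (88.1%) and bodies (85%). The part of this likeness in the result was not tested.

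Along the chromosome, 235 of the 249 genes stood in 10 clusters, runs of at least 5 ZNF genes with gaps of at most 500 kb, and the clusters differed widely in TTD peaks. Of the 235 genes in clusters, 61 (26%) held a peak in the TSS window, and of the 14 outside, 3 did (21.4%, 7.57 to 47.6). The clusters span 14.4 Mb, which is 24.6% of the chromosome, and held 126 of its 350 peaks (36.0%). Their peaks covered 1.82% of the spans, against 1.26% of the chromosome.

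**Figure D4:**
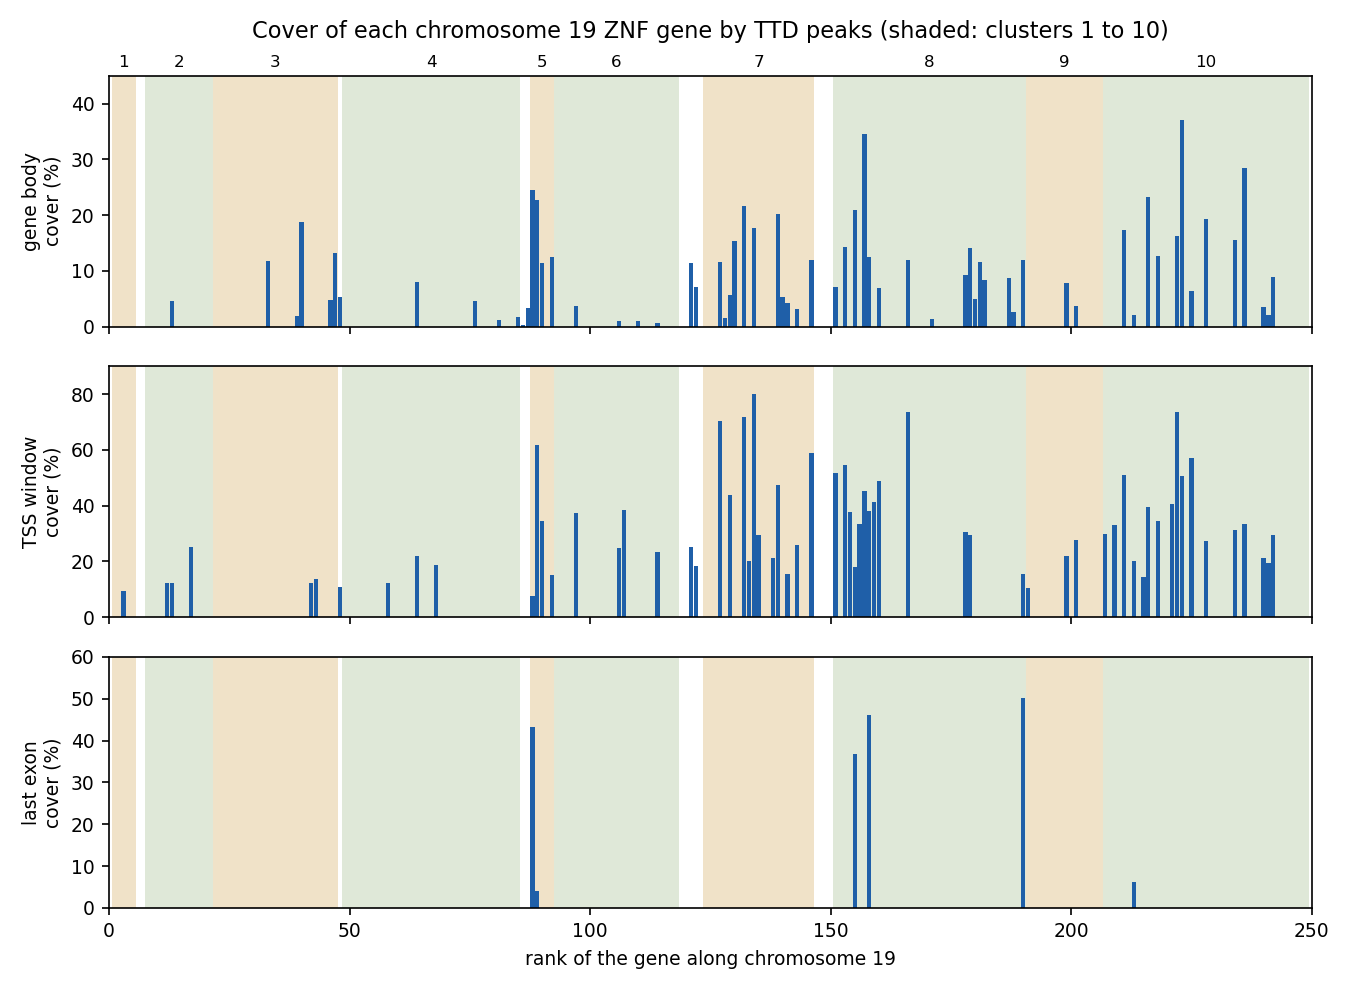
Cover by TTD peaks (y axes, percent) of the gene body, TSS window and last exon of each of the 249 ZNF genes, in their order along chromosome 19 (x axis, rank), with the 10 clusters shaded. Covered genes crowd in clusters 5, 7, 8 and 10, and the TSS window reaches 80.1% in ZNF223 of cluster 7.

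Cluster 5, from ZNF302 to ZNF792, had the largest mean body cover, 14.2%, and the most peaks for its length, 31.4 per Mb. With only the peaks of 2250 bp, the median width, or more, cluster 7 had the largest mean body cover instead, 4.66%. Of the 5 genes of cluster 5, 4 held a peak in the body and in the TSS window. ZNF302 and ZNF181 each also held one over the last exon, the TSS windows of ZNF599 and ZNF792 were covered to 34.4% and 15%, and ZNF30 met no peak. The Wilson interval of cluster 5 for the TSS window, 37.6 to 96.4, shows how little 5 genes can fix. ZNF302 was also met upstream, 2128 bp from its TSS, by a peak of 9950 bp, the widest of those on these genes.

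Cluster 7, from ZNF575 to ZNF180, held a peak in the TSS window of 11 of its 23 genes (47.8%, 29.2 to 67.0), with 21.5 peaks per Mb. ZNF283, ZNF45, ZNF230, ZNF223, ZNF226 and ZNF180 of this cluster had peaks on both flanks, whereas ZNF224, which stands among them and encodes a repressor of the aldolase A gene, had its nearest peak 22411 bp from the TSS. Cluster 8, from ZNF175 to ZNF331, counted 13 of 40 (32.5%, 20.1 to 48.0) and 15.4 peaks per Mb. Of its genes with a peak in the TSS window, 8 stood side by side from ZNF649 to ZNF616 (a run noticed in the values). Cluster 10, from ZNF264 to ZNF446 near the end of the long arm, counted 17 of 43 (39.5%, 26.4 to 54.4), among them ZNF134, ZNF530, ZNF772, ZNF776, ZNF256, ZNF417 and ZNF274.

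The largest cluster by length held few peaks. Cluster 4, from ZNF101 to ZNF254, spans 4461 kb of the short arm toward the centromere (chr19:19668796-24129968) and held 13 peaks, 2.91 per Mb, and 3 of its 37 genes (8.11%, 2.80 to 21.3) had one in the TSS window. Its gene with the largest body cover was ZNF708, with 7.97%. Cluster 3, from ZNF653 to ZNF791, was similar at the TSS, with 2 of 26 genes (7.69%, 2.14 to 24.1), and ZNF563 led it in the body with 18.8%. Cluster 6, from ZNF565 to ZNF573, had 4 of 26 (15.4%, 6.15 to 33.5) and 3.06 peaks per Mb. In it, ZNF529 had the highest body cover, 3.73%. Clusters 1, 2 and 9 counted 1 of 5, 3 of 14 and 3 of 16 genes with a peak in the TSS window. The read-through gene ZNF559-ZNF177 led cluster 2 in the body with 4.65% and ZNF444 led cluster 9 with 7.81%, while no gene body of cluster 1 met a peak.

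**Figure D5:**
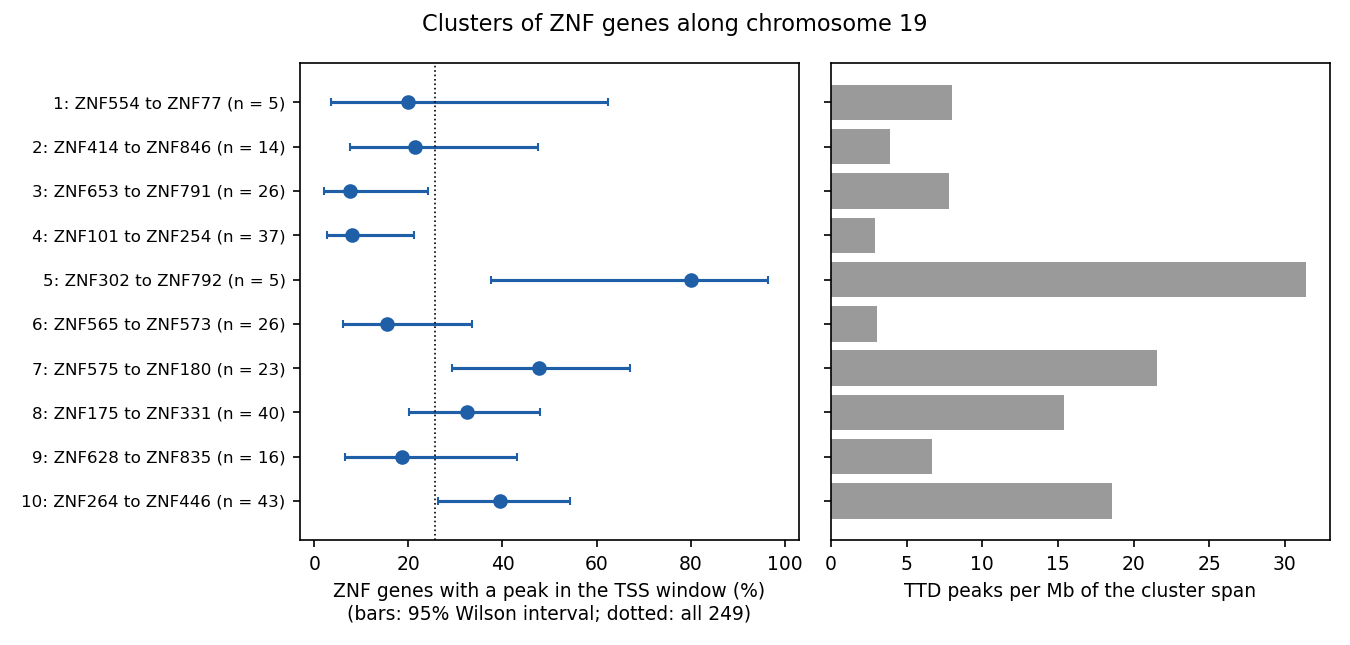
Left, percent of the ZNF genes of each cluster with a TTD peak in the TSS window (points) with 95% Wilson intervals (lines), the dotted line marking 25.7% for all 249. Right, TTD peaks per Mb of the cluster span, from 2.91 in cluster 4 to 31.4 in cluster 5.

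The intervals of clusters 5, 7 and 10 at the TSS lay above those of clusters 3 and 4. Sequence properties varied with the clusters in part. The median CpG ratio at the TSS was 0.531 in cluster 4 and from 0.651 to 0.891 in the others, and the median of 31-base words found once in the TSS window was 80.4% in cluster 4, 81.6% in cluster 1 and from 86% to 95.8% in the others. The part of both in the peak numbers was not tested. The number of copies of chromosome 19 regions in HepG2 was not measured here.

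The other genes that stand within the clusters held fewer peaks at the TSS than the ZNF genes. Of 110 such genes, 12 (10.9%, 6.35 to 18.1) held a peak in the TSS window, and 7 of the 12 shared it with the TSS window of a ZNF gene. Over the body it was 26 (23.6%, 16.7 to 32.4), an interval that overlapped that of the ZNF genes, and over the last exon none. Among these, 12 were zinc finger genes of other names (ZFP, ZSCAN, ZIM, ZIK or ZKSCAN), of which 2, ZSCAN5A and ZIK1, held a peak in the TSS window. Outside the clusters, 45 of 1117 other genes did (4.03%, 3.02 to 5.35).

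Seen from the peaks, 106 of the 350 TTD peaks of chromosome 19 (30.3%) met the body or TSS window of a ZNF gene, 73 of them the body, 76 the TSS window, 6 the last exon and 5 the TSS. The TSS windows of the ZNF genes are 2.06% of the chromosome and held 14% of its peak bases. Their gene bodies are 12.9% of the chromosome and held 19.1% of its peak bases. The 106 peaks ranged from 520 to 9950 bp, with a median of 1915 bp, against 1570 bp for the other peaks of the chromosome and 2250 bp for all peaks of the list. No peak of 10 kb or more met a ZNF gene, while 1 stood on the chromosome, in a list from which the authors had removed large peaks taken as false. Where TSS windows of 2 ZNF genes fell together they were counted as 1 locus, and 62 of 240 loci (25.8%) held a peak.

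The shares were also taken by class of protein. Genes with the KRAB pattern held a peak in the TSS window in 59 of 205 cases (28.8%, 23 to 35.3), and those without it in 5 of 44 (11.4%, 4.95 to 24), intervals that overlapped by a narrow margin. By finger number the counts were 2 of 13 with 1 to 5 fingers, 19 of 73 with 6 to 10 (26%), 29 of 105 with 11 to 15 (27.6%) and 13 of 56 with over 15 (23.2%). Genes on the plus and minus strand gave 26.9% and 24.3%.

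Among 17 ZNF genes listed for a known role, 6 held a peak in the body, 5 in the TSS window and 1 over the last exon, beside 26.1%, 25.7% and 2.41% of all 249 ZNF genes. ZNF274, which brings SETDB1 to the 3′ ends of other ZNF genes, held 1 peak of 1070 bp after its TSS, with 21.4% of the TSS window and 3.50% of the body covered. ZNF649 had peaks on both flanks (55.6% upstream and 53.8% downstream). ZNF417, which binds endogenous retroviruses of the HERV-K group, had 31.2% of the TSS window covered, downstream only. But only 66.0% of the 31-base words of this window occurred once, and 50.6% of those of its last exon, the near copies of the gene included. ZNF420 had 25% of the TSS window covered and ZNF331 15.5%. ZNF91 had 1 peak in the body, covering 1.19%, and none in the TSS window. No peak met ZNF93, which represses LINE-1 elements, or ZNF43, ZNF257, ZNF675, ZNF146, ZNF382, ZNF568, ZNF224, ZNF808, ZNF582 and ZNF471.

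Genes of the corepressor machinery that KRAB zinc finger proteins work with, and other chromatin genes such as ATRX, DNMT1 and UHRF1, were taken as a list of 13. Of these, MORC2 and TASOR held a peak in the body and the TSS window, with 36.5% and 36.9% of the TSS window covered. Of all protein-coding genes, 34.2% held a peak in the body and 16.9% in the TSS window. A count of 2 in 13 is too small to be set apart from either share. TRIM28, SETDB1, CBX1, CBX3, CBX5, ATF7IP, ATRX, MPHOSPH8, PPHLN1, DNMT1 and UHRF1 held none in any of the 3 windows.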

How the data were processed

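Native mononucleosomes of HepG2 cells were pulled down with the GST-tagged TTD of human UHRF1 in 2 replicates. The authors trimmed the reads with Trimmomatic 0.38, checked them with FastQC 0.72, aligned them to hg38 with HISAT2 2.2.1, computed RPKM coverage with deepTools 3.3.2 without blacklisted regions, averaged both TTD replicates, called broad peaks on the mean with MACS2 2.1.1, removed blacklisted regions, and took out artifacts and large peaks judged false by hand (names and versions from the submitters' processing notes and the methods). They deposited 1 list of positions and peak widths in bp, with no score, p-value or count, so the part of manual removal and of read placement in repeated sequence could not be measured here.

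Positions were joined to GENCODE release 44 on the same build by interval arithmetic, tested on simulated intervals, in Python 3.11.15 with numpy 2.4.6, pandas 2.3.3, biopython 1.88 and matplotlib 3.10.9. A window counted as met with at least 1 base in a peak. The TSS and last exon were those of the Ensembl canonical transcript. C2H2 fingers and the KRAB pattern were searched in coding sequence translated from the genome, in place of the RefSeq proteins planned. Repeat masking was not available in the genome used, and 31-base words counted on chromosome 19 took its place. Promoter sequences are from RefSeq. Shares carry 95% Wilson intervals, which hold counting error only. Genes named are the 10 with the largest body cover, the 5 with the largest TSS window cover, the 5 with the largest last exon cover, the leading gene of each cluster, and 17 genes with known roles. Others named (the genes whose TSS lay in a peak, ZNF181 for its last exon, further genes of clusters 5, 7 and 8, the ends of clusters, and single genes given for a count) were chosen after their values were seen. The naming rule for the members uses no measured value, but the gene group, like the lists, was chosen with earlier results of these data known. The signals of the single libraries, the H3K9me2 ChIP and the input were not analysed here.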

Additional observations from a re-analysis of the deposited data

How the results depend on the processing

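Of 43 alternative values, 32 stayed within the Wilson interval of the reported share or within 1.5 times the reported cover, 11 moved further and none changed direction. No paired analysis was possible because both replicates were pooled in 1 peak list, and for the same reason no replicate could be left out. With only the wider peaks (2250 bp, the median, or more), the share of ZNF genes with a peak became 13.7% for the gene body and 9.64% for the TSS window (3.02% and 1.39% of the other genes of chromosome 19), the difference in mean cover between ZNF and other genes 3.03 percentage points for the TSS window and 0.169 for the last exon, and the cluster with the largest mean body cover was that from ZNF575 to ZNF180, with 4.66%. With at least 10% of the window in peaks, 12% of ZNF genes counted for the body (2.2% of the others). With bases pooled over genes, the difference in cover was 0.970 percentage points for the body and 0.216 for the last exon, against 2.00 and 0.105 as reported. It was 1.03 for bodies without the bases of the TSS window, 0.698 for the last 3 kb of the gene and 0.055 for the last exon with the ZFP, ZSCAN, ZIM, ZIK and ZKSCAN genes added. Leaving out the 3 read-through genes, an alternative added after the data were seen, moved no value further than this. The list gives no depth, so a gene without a peak may hold TTD signal below the level at which peaks were called.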
